A study of Rattus norvegicus with 18 samples.

Results

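The acetylcholine receptor of skeletal muscle was followed through its 5 subunit genes, Chrna1, Chrnb1, Chrnd, Chrng and Chrne, together with Ncam1, which encodes the neural cell adhesion molecule. The genes were found by their symbols in the platform annotation, which gave 6 genes read by 7 probe sets, out of 4736 genes and 8740 probe sets tested. Each subunit had 1 probe set. Ncam1 had 2, of which the brighter one is called the lead probe set. The rule used gene symbols, and signal decided only which Ncam1 probe set leads.

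The rats were female, of the Sprague-Dawley strain, and young (6 weeks of age), adult (26 weeks) or older (52 weeks). RNA came from a mid-shaft segment of the femur. The femora had been fractured over an intramedullary rod and were taken 3 days or 1, 2, 4 or 6 weeks later, against unfractured femora of sham-operated rats of each age. Callus, cortical bone and marrow were harvested together. RNA from 2 rats was pooled on each of 18 arrays, 1 per age and time, so that the 36 rats gave 1 array for each of the 18 groups and the 3 ages served as the arrays of a time. The p-values measure the spread between these arrays. A signal is scaled within its array and is no count of transcripts, and in a mixed tissue fewer muscle fibres and less RNA per fibre cannot be told apart.

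At the neuromuscular junction, acetylcholine released by a motor nerve opens a channel built of 5 protein chains. The alpha subunit (Chrna1) binds the transmitter, and the beta (Chrnb1) and delta (Chrnd) subunits are also part of every muscle receptor. The remaining chain is gamma (Chrng) in the fetal receptor and epsilon (Chrne) in the adult receptor. In an innervated adult fibre the subunits are transcribed mainly by nuclei beneath the nerve ending. After loss of the nerve, nuclei along the whole fibre are known to transcribe the alpha, beta, delta and gamma genes again, and Ncam1 spreads over the fibre surface. Newly formed and regenerating fibres also make the alpha, delta and gamma subunits and Ncam1, so the genes do not by themselves separate denervated from young fibres.

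Myogenic factors such as myogenin bind E-box sequences in these promoters, and the N-box is known from studies of the delta and epsilon promoters in mice as a motif for transcription beneath the nerve ending. The start regions are shown for the alpha and delta subunits, whose signals moved together, and for gamma and epsilon, whose signals did not. Each run covers 150 bases before to 10 bases after the transcript start in the RefSeq promoter table (build GRCr8), read along the gene at chr3:78877344-78877503 (minus strand) for Chrna1, chr9:95310166-95310325 (plus strand) for Chrnd, chr9:95325834-95325993 (plus strand) for Chrng and chr10:55834145-55834304 (minus strand) for Chrne. Capitals mark matches to the E-box CAGCTG, to the E-box with letters CACCTG, which reads CAGGTG on the opposite strand, and to the N-box with letters CCGGAA, which reads TTCCGG on the opposite strand.
Chrna1: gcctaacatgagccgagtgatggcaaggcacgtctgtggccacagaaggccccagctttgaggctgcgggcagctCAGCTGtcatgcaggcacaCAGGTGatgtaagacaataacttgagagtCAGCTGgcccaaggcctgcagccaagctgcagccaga
Chrnd: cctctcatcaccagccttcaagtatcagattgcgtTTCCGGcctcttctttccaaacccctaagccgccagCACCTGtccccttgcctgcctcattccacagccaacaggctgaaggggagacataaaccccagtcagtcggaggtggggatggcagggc
Chrng: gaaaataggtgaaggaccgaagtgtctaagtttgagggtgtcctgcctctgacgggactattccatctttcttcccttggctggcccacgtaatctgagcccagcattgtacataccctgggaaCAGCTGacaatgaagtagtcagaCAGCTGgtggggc
Chrne: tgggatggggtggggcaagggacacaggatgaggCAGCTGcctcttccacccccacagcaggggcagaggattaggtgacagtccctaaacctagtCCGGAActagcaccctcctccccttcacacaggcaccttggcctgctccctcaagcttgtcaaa
The Chrna1 run holds CAGCTG at -75 and -27 and CAGGTG at -56, counted to the first base of the match from the start. The Chrng run holds CAGCTG at -26 and -3. Chrnd has 1 E-box of the searched kinds, CACCTG at -79, and an N-box at -115. Chrne has CAGCTG at -116 and an N-box at -54. The start shown for Chrne lies within its annotated gene span. Over the table's full windows of 250 bases before to 50 after the start, searched on both strands, CAGCTG was present in 4 of the 5 subunit promoters and in 15.1% of all 33469 promoters. At least 2 copies were present in 2 of the 5 and in 1.69% of all promoters. CACCTG was present in 3 of the 5 against 18.8%, and the N-box in 2 of the 5 against 15% of all promoters. The general E-box CANNTG, which includes both specific forms, was in all 5 but also in 72.1% of all promoters. These matches are descriptions of sequence and not bound sites. Chrnd and Chrng lie in the same direction on chromosome 9, separated by 7249 bases, and Chrnb1 and Chrne both lie on chromosome 10.

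Before the subunits, the muscle content of the segments was examined. Of the adult contractile muscle list 25 genes were measured, of which Ttn was below the floor of 20 on 15 of 18 arrays (highest signal 36.3). Their mean log2 signal was 9.75 to 9.93 on the 3-day arrays and 11.19 to 12.22 on all other arrays. At 3 days 23 of the 25 were called lower than with no fracture, among them Myh2, a fast myosin (fell by 4.48 on the log2 scale), Pvalb, the calcium buffer of fast fibres (fell by 4.41), Myl2 (fell by 3.99) and Casq1, the calcium store protein of the sarcoplasmic reticulum (fell by 3.78). The counts were 8 of 25 at 1 week, 2 at 2 weeks and 0 at 4 and 6 weeks. Over all probe sets, 20.4%, 17.8%, 16.8%, 9.70% and 7.11% were called lower at 3 days and 1, 2, 4 and 6 weeks. A gene was called where its adjusted p was below 0.05 in a limma fit with time and age over all 18 arrays. For actin, the 3' control probe set was brighter than the 5' one by a ratio that falls with better RNA integrity, and the ratio was 1.48 to 1.88 at 3 days, 1.66 to 1.76 at 1 week, 1.65 to 1.75 at 2 weeks, 1.71 to 1.90 at 4 weeks and 1.89 to 2.72 at 6 weeks, against 2.10 to 2.61 with no fracture. The ratio was thus below every intact value on all arrays of the first 4 times, where all calls of the 6 genes except the 6-week call of Chrna1 stand. The part of muscle content and RNA integrity in the results was examined only through the fits given below.

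Of the 6 genes, 3 were called higher than with no fracture at 3 days (18.9% of all probe sets were), 5 at 1 week (18%), 4 at 2 weeks (16.1%), 1 at 4 weeks (11.5%) and 1 at 6 weeks (8.34%). None was called lower at any time. The median change of the 6 genes was 0.50, 1.81, 0.95, 0.59 and 0.47 on the log2 scale at these times, beside medians of -0.08, -0.04, -0.07, -0.03 and -0.01 over all probe sets. All 5 subunits had their highest signal at 1 week in each age group among the fractured arrays, whereas the Ncam1 lead probe set was highest at 2 weeks in young and older rats.

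**Figure D1:**
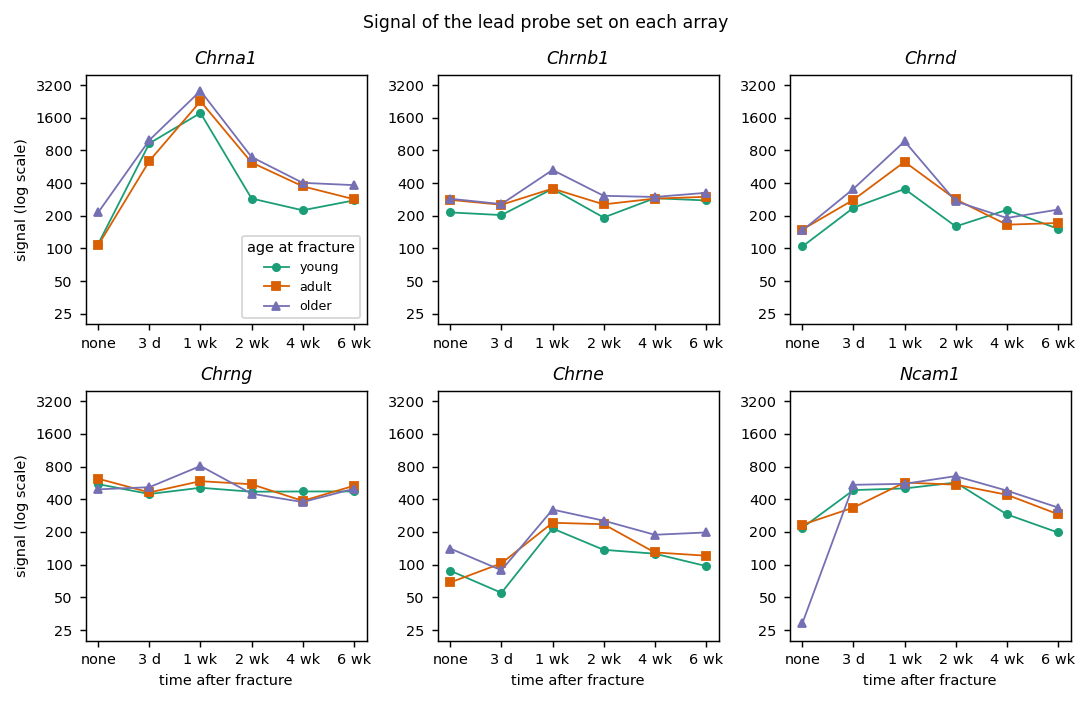
Signal of the lead probe set (log scale, with equal limits in all panels) at each time (age groups by colour and symbol), 1 array per point. Chrna1 stood between 1769.5 and 2831.5 at 1 week on all 3 arrays, whereas Chrng stayed between 377.2 and 810.9 throughout.

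Chrna1, the transmitter-binding subunit, had the greatest change of the 6 genes at 3 days and 1 week, and the Ncam1 lead probe set at the later times. In young rats its signal was 110.4 with no fracture, then 929, 1769.5, 288.5, 224.7 and 277 at 3 days and 1, 2, 4 and 6 weeks. In adult rats the values were 107.5, then 640.9, 2269.2, 619.1, 373.7 and 284.5. In older rats they were 215.3, then 995.5, 2831.5, 695.6, 402.3 and 383.2. Every fractured array lay above all 3 intact arrays. Chrna1 rose 6.14-fold at 3 days (log2 change 2.62, SE 0.25, adjusted p = 3.2e-05) and 16.4-fold at 1 week (4.04, SE 0.25, adjusted p = 1.0e-05), rank 22 from the highest of the 8740 changes at that time. By lead probe set it was the only one of the 6 genes still called higher at 4 weeks (log2 change 1.24, adjusted p = 0.0076) and 6 weeks (1.19, adjusted p = 0.012). Neither of the late calls held without the adult rats (0.96 and 1.08) or without the older rats (1.41 and 1.37), and the one at 6 weeks did not hold without the intact adult array (1.01). The call at 4 weeks was also lost with the actin 3' to 5' ratio as a covariate.

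The rise of Chrna1 came in steps. Between 3 days and 1 week Chrna1 rose further, by 1.42 on the log2 scale (adjusted p = 0.011), as did Chrnb1, Chrnd and Chrne, while 2.12% of all probe sets were called higher in that step. Between 1 and 2 weeks Chrna1 fell by 2.17 (adjusted p = 0.0098), 1 of 8 probe sets called lower there (0.0915% of all). These steps were compared after the profiles had been seen.

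Chrnd, the delta subunit, followed the alpha subunit at a smaller size. Its signals were 237.3, 281 and 354.7 at 3 days in young, adult and older rats, 353.5, 628.2 and 969.9 at 1 week and 159.6, 283.5 and 271.4 at 2 weeks, against 104.3, 149.4 and 146.6 with no fracture. At 4 weeks they were 226.6, 165.6 and 190.9, and at 6 weeks 151.8, 171.6 and 227.9. All 15 fractured arrays again lay above every intact one. Chrnd was called higher at 3 days (2.18-fold, log2 change 1.12, SE 0.25, adjusted p = 0.0049), 1 week (4.55-fold, log2 change 2.19, adjusted p = 0.00016) and 2 weeks (1.75-fold, log2 change 0.81, adjusted p = 0.031), and not at 4 weeks (adjusted p = 0.15) or 6 weeks (adjusted p = 0.26). The call at 3 days was lost without the adult rats or without the older rats, and that at 2 weeks also without any 1 of the 3 intact arrays, the adult 2-week array or the older 2-week array, over which the change was 0.65 to 0.90. Neither of these calls held with the actin 3' to 5' ratio, or with the mean log2 signal of the contractile genes, as a covariate. Across the 18 arrays the log2 signals of Chrnd and Chrna1 had a Pearson r of 0.92, a description over arrays that share the same time course.

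Chrnb1, the beta subunit, moved little. Its signals were 354, 356 and 528.4 at 1 week in young, adult and older rats, against 214.8, 280.2 and 287 with no fracture. At the other times it lay between 192.8 and 325.4. The 1-week arrays stood above the intact ones, a 1.57-fold rise (log2 change 0.65, SE 0.12, adjusted p = 0.0024) that was not called without the older rats (0.53). No other time was called, with log2 changes of -0.13 to 0.21. Some of its 3-day, 2-week and 6-week values overlapped the intact ones.

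Chrng and Chrne, which alternate in the fetal and adult receptor, did not move together. Chrng read 447.4, 462.5 and 517 at 3 days in young, adult and older rats, 510.8, 587.6 and 810.9 at 1 week, 469.7, 550.2 and 450.5 at 2 weeks, 472.1, 386.9 and 377.2 at 4 weeks and 472.7, 532 and 499.6 at 6 weeks, against 551.4, 619.2 and 494 with no fracture. The groups overlapped except at 4 weeks, where all 3 arrays lay below the intact ones. Chrng was called at no time, with a log2 change of 0.18 at 1 week (SE 0.16, adjusted p = 0.43) and -0.43 at 4 weeks (adjusted p = 0.081). Only the older rats showed a 1-week value above their intact one, 1.64-fold. In young and adult rats every fractured value was below the intact value. The 4-week difference was called lower in 4 of 34 alternatives. These were centring every array on its median and taking the mean log2 signal of the contractile genes as a covariate. The others left out the young 4-week array or the older 1-week array.

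Chrne had a low signal that was called higher at 1 and 2 weeks. It read 55, 102.9 and 88.8 at 3 days in young, adult and older rats, 215.4, 243.2 and 321.6 at 1 week and 137, 235.5 and 254.2 at 2 weeks, against 87.9, 68.6 and 140.6 with no fracture. At 4 weeks it read 126.2, 129.6 and 188.5, and at 6 weeks 97.2, 121 and 197.9. The 1-week values lay above all intact values, and the 3-day values did not separate from them. Chrne was called higher at 1 week (2.71-fold, log2 change 1.44, SE 0.23, adjusted p = 0.00082) and 2 weeks (2.13-fold, log2 change 1.09, adjusted p = 0.0042), and had a log2 change of -0.25 at 3 days (adjusted p = 0.42), when Chrna1 and Chrnd were already higher. The 2-week call was lost without the older rats (1.21). Without the adult rats the 3-day change was -0.67 and was called lower. Chrng and Chrne are read by probe sets of a kind that may also bind related transcripts, and their signals were not set against each other as levels.

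**Figure D2:**
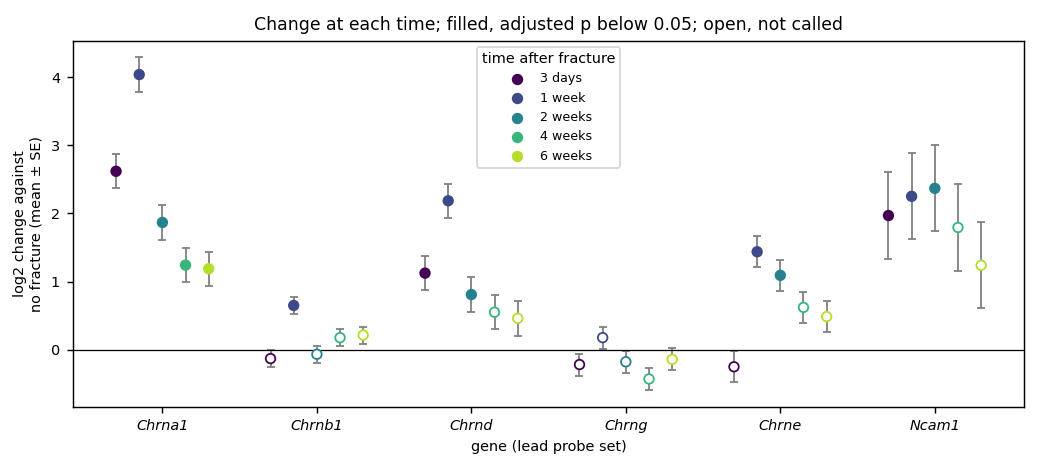
Change of each gene's lead probe set at each time after fracture, as log2 difference from no fracture (points, limma estimates over 18 arrays; bars, SE). Filled points have an adjusted p below 0.05, which Chrna1 has at all 5 times and Chrng at none.

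Ncam1, the adhesion molecule of immature and denervated fibres that is also made by nerve, Schwann cells and bone-forming cells, was higher in the first 2 weeks. The lead probe set read 486.2, 335.7 and 543.8 at 3 days in young, adult and older rats, 503.5, 570.5 and 555.5 at 1 week and 570.7, 545.4 and 653.8 at 2 weeks, against 218.9, 233.5 and 28.9 with no fracture. It then read 290.8, 440.5 and 481.1 at 4 weeks and 197.9, 291.8 and 336 at 6 weeks. The intact older array stood far below the others. The gene was called higher at 3 days (log2 change 1.97, SE 0.63, adjusted p = 0.029), 1 week (2.25, adjusted p = 0.018) and 2 weeks (2.37, adjusted p = 0.015). Without the intact older array these changes were 0.87, 1.15 and 1.27 and were still called. Calls were lost without all young or all adult rats at each of these times, without the older rats at 3 days (0.84), and without the young or the older 3-day array, the older 1-week array or the older 2-week array at those times, with changes of 0.84 to 2.94. With the actin 3' to 5' ratio as a covariate they were 0.33, 0.89 and 0.93 and none was called.

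The other Ncam1 probe set was also higher after fracture, with a different peak: its highest signal came at 3 days in young rats and at 1 week in adult and older rats. It read 347.8, 213.5 and 446.5 at 3 days, 313.9, 496.4 and 550 at 1 week, 204.8, 241.2 and 310.9 at 2 weeks, 237.4, 244.2 and 310.9 at 4 weeks and 209.5, 173.1 and 132.8 at 6 weeks, against 197.9, 79.1 and 52.3 with no fracture, in young, adult and older rats. It was called higher at 3 days (log2 change 1.78, SE 0.45, adjusted p = 0.0088), 1 week (2.24, adjusted p = 0.003), 2 weeks (1.41, adjusted p = 0.032) and 4 weeks (1.49, adjusted p = 0.037). Across the arrays the 2 probe sets had a Pearson r of 0.81. Killer cells carry this molecule in humans. Of their 5 measured markers 4 were called lower at 3 days and at 1 week (20.4% and 17.8% of all probe sets were), and their summed signal was 260.7 to 316.6 at 3 days, against 452.4 to 719.9 with no fracture, with Prf1 below the floor of 20 on all arrays. Their part in the result was not tested.

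Because the contractile genes fell at 3 days, each gene was also expressed as a log2 ratio to the mean of the 25 contractile genes on the same array. Relative to no fracture, the ratio of Chrna1 was higher by 4.79 at 3 days, 4.66 at 1 week, 2.19 at 2 weeks, 1.28 at 4 weeks and 1.23 at 6 weeks. The ratio of Chrnd was higher by 3.30, 2.81, 1.13, 0.58 and 0.50 at these times. The ratio of Chrng was higher by 1.95 at 3 days and 0.80 at 1 week and then differed by 0.14, -0.40 and -0.10. The contractile mean itself was lower by 2.17, 0.62, 0.32, 0.03 and 0.04 at these times, so a gene with no change in signal would show a ratio higher by those amounts. The Chrng values lie close to them or below, and those of Chrna1 and Chrnd above. For Chrne the ratio was higher by 1.92, 2.06, 1.41, 0.65 and 0.53, below that amount at 3 days and above it later. For Ncam1 it was higher by 4.14, 2.87, 2.69, 1.83 and 1.28, above those amounts at every time. Over all 15 fractured arrays against the 3 intact ones the mean ratio was higher by 2.83 for Chrna1 (15 of 15 above the intact array of the same age), 1.66 for Chrnd (15 of 15), 1.31 for Chrne (14 of 15), 2.56 for Ncam1 (14 of 15), 0.81 for Chrnb1 (13 of 15) and 0.48 for Chrng (9 of 15), beside 0.64 for a gene with no change in signal.

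A two-sided exact permutation test that moved the intact label among the 6 arrays of each age cannot go below 0.0046. It gave p = 0.023 for Chrna1, 0.037 for Chrnd, 0.014 for Chrne, 0.014 for Ncam1, 0.10 for Chrnb1 and 0.43 for Chrng in the exact test. These tests set the ratio against no difference and so include the fall of the contractile genes, which the ratio of Chrng to Chrne does not. The log2 ratio of Chrng to Chrne was lower by 0.84 over the fractured arrays (p = 0.042 in the same exact permutation test), lower in 13 of 15 arrays than in the intact array of the same age. It lay between 1.25 and 1.33 at 1 week in all 3 ages, against 1.81 to 3.17 with no fracture. At 3 days its mean change was 0.03. There the young (3.02) and older (2.54) arrays lay above their intact values of 2.65 and 1.81, and the adult array (2.17) below its 3.17. Adjusted over the 7 differences by Benjamini-Hochberg, the exact permutation p-values were 0.049 for Chrne and Ncam1, 0.054 for Chrna1 and 0.058 for Chrnd and for Chrng over Chrne. The 2 that passed did not pass when any age group was left out, but the test could hardly pass there. Fewer arrangements then remain and its lowest possible p-value is higher, so these failures do not measure how firm the 2 results are. When the contractile mean was instead a covariate in the limma fit, none of the 6 genes was called at 3 days, the 3-day changes were 5.08 for Chrna1, in the same direction and larger, and -0.71 and -2.22 for Chrnd and Ncam1, and 2 genes were called at 1 week, Chrna1 and Chrnd.

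**Figure D3:**
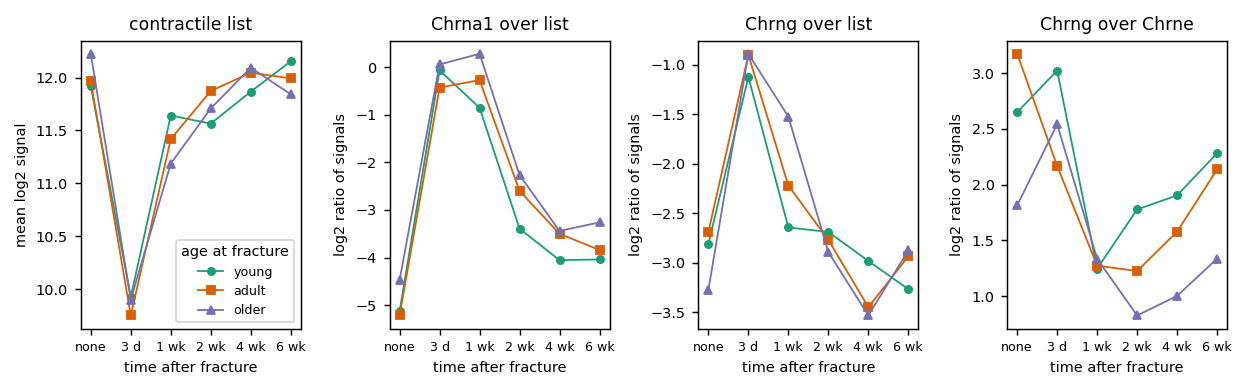
Mean log2 signal of the 25 contractile genes (left), log2 ratio of Chrna1 and of Chrng to that mean, and log2 ratio of Chrng to Chrne (right), against time after fracture, 1 array per point. The contractile mean is 9.75 to 9.93 at 3 days and at least 11.19 elsewhere; the height of a ratio between different probe sets has no meaning, only its change between arrays.

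Age was compared next, since the labels name the age of the rats as a variable. The study itself had named Chrna1 for a stronger response in older rats from arrays that include these, so an age difference of Chrna1 here is no independent evidence. In the additive fit 0.446% of all probe sets were called between older and young rats and none of the 6 genes was. Over the 6 times, Chrna1 differed by 0.72 (older minus young, SE 0.18, adjusted p = 0.11), Chrne by 0.74 (SE 0.16, adjusted p = 0.082), Chrnd by 0.61 (SE 0.18, adjusted p = 0.16) and Chrnb1 by 0.38 (SE 0.09, adjusted p = 0.098). Chrng differed by 0.07 (SE 0.11) and the Ncam1 lead probe set by -0.16 (SE 0.45). Chrna1 was called without the young 3-day array (0.86) and Chrne without the intact adult array (0.74). The older rats had the higher Chrna1 signal at each of the 6 times, the intact femur included, 215.3 against 110.4 in young rats. As folds over the intact femur of the same age, the 1-week Chrna1 signal was 16.0, 21.1 and 13.2 in young, adult and older rats, and that of Chrnd 3.39, 4.20 and 6.62.

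A second fit asked whether the older minus young difference during healing departed from the one with no fracture. For the 5 subunits no departure was called: at 1 and 2 weeks it was 0.01 for Chrna1 (SE 0.42), 0.62 for Chrnd (SE 0.48), 0.20 for Chrnb1 (SE 0.21), 0.46 for Chrng (SE 0.39) and 0.06 for Chrne (SE 0.35), and at 4 and 6 weeks it lay between -0.32 and 0.12. The Ncam1 lead probe set was called in both (2.22% and 3.02% of all probe sets were), with a departure of 3.09 at 1 and 2 weeks (SE 0.15, adjusted p = 0.0012) and 3.67 at 4 and 6 weeks (SE 0.15, adjusted p = 0.00064). Both rest on the single intact older array, whose signal was 28.9, near the floor, against 218.9 on the intact young array. The SE comes from the spread of other arrays and holds no measure of the spread among intact older femora, so the p-values do not establish a difference between the ages, and with a floor of 100 the values were 1.30 and 1.88. The other probe set of the gene gave 2.63 (adjusted p = 0.083) and 1.79 (adjusted p = 0.14), in the same direction and not called. At 4 and 6 weeks alone, without the intact arrays, the lead probe set was higher in older than in young rats by 0.75 (adjusted p = 0.042, beside 1.24% of all probe sets called), and the other probe set differed by -0.13 (adjusted p = 0.88).

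**Figure D4:**
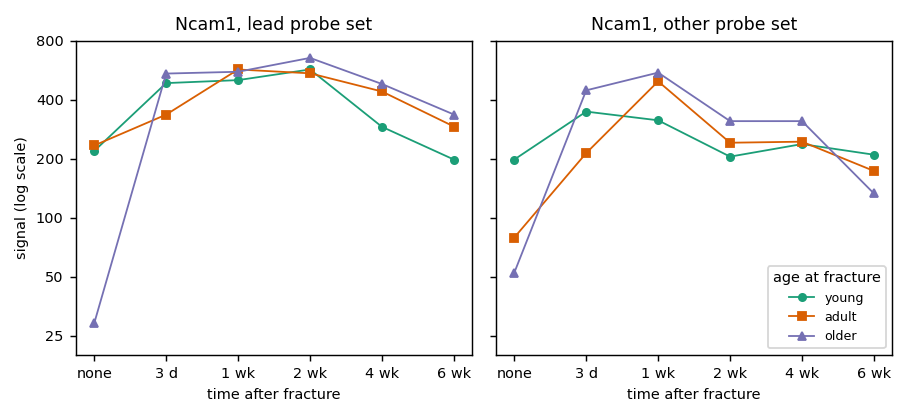
Signal of both Ncam1 probe sets (log scale) at each time (age groups by colour and symbol), 1 array per point. The intact older array reads 28.9 and 52.3, the lowest value of each panel.

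Genes around the receptor at the junction were called in both directions. Of 15 measured genes of junction assembly, 3 were called higher and 2 lower at 3 days (18.9% and 20.4% of all probe sets), 3 and 0 at 1 week (18% and 17.8%), 3 and 1 at 2 weeks (16.1% and 16.8%) and at 4 weeks (11.5% and 9.70%), and 2 and 1 at 6 weeks (8.34% and 7.11%). Agrn, whose product agrin is released by the nerve and clusters receptors, was higher 2.69-fold at 1 week (adjusted p = 0.00052), Erbb2, a receptor subunit for neuregulin, 2.87-fold at 2 weeks (adjusted p = 0.0064) and Lamb2, a laminin of the synaptic basal lamina, 1.98-fold at 2 weeks (adjusted p = 0.0019). Ache, which encodes acetylcholinesterase, was lower 2.89-fold at 3 days (adjusted p = 4.3e-05) and Nrg1 lower 1.94-fold (adjusted p = 0.015). Musk, the kinase that receives the agrin signal and is itself raised by denervation, was below the floor of 20 on 16 of 18 arrays, with a highest signal of 34.8, and gives no usable change. It is named after its values were seen.

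The denervation list held 17 measured genes known to change in muscle after loss of the nerve, 4 of them also in the immature muscle list. At 3 days 7 were called higher and 1 lower, at 1 week 10 and 0, at 2 weeks 7 and 3, at 4 weeks 4 and 0, and at 6 weeks 3 and 1. Of all probe sets 18.9%, 18%, 16.1%, 11.5% and 8.34% were called higher at these times. The shares called lower were 20.4%, 17.8%, 16.8%, 9.70% and 7.11%, so the counts of lower genes were near or below them. Those called lower were Ngfr, the low-affinity neurotrophin receptor, at 3 days (fell by 1.62 on the log2 scale, adjusted p = 0.0038) and 2 weeks (fell by 1.23), Ampd3 (fell by 1.18) and Gadd45a (fell by 0.86) at 2 weeks, and Runx1 at 6 weeks (fell by 0.76). The median log2 change of all 17 genes was 0.30, 0.66, 0.44, -0.01 and 0.04 at the 5 times. Myog, the muscle regulator myogenin that binds E-boxes in the receptor promoters, rose 9.17-fold at 3 days (adjusted p = 0.00024) and 10.7-fold at 1 week (adjusted p = 0.00027), with 446.3 to 1957.8 at 1 week, against 47.1 to 193 with no fracture. Ankrd1, a stress-induced ankyrin repeat protein of muscle, rose 10.6-fold at 1 week (adjusted p = 3.0e-05) and was still 5.37-fold higher at 6 weeks (adjusted p = 0.0007). Cdh2 (N-cadherin), Plat (tissue plasminogen activator) and Cdkn1a, a cell-cycle inhibitor, were also higher, 12.8-fold and 4.17-fold at 3 days for Cdh2 and Cdkn1a and 7.46-fold at 1 week for Plat, although 2 of the 3 intact arrays read Cdh2 below the floor and its fold depends on that floor. These 3 are made by many cells other than muscle. Other genes of the list gave no call at 1 week: Runx1 had a log2 change of 0.34 (adjusted p = 0.20) and Gadd45a one of 0.22 (adjusted p = 0.56). Trim63, the ubiquitin ligase of muscle atrophy, was 1.42-fold higher (adjusted p = 0.04).

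Genes of immature muscle rose with the receptor. Of 8 measured, 4 were called higher at 3 days, 8 at 1 week, 5 at 2 weeks, 3 at 4 weeks and 0 at 6 weeks, with none called lower, beside 18.9%, 18%, 16.1%, 11.5% and 8.34% of all probe sets higher. The median log2 change was 0.35, 2.23, 1.45, 0.73 and 0.43. Myl4, the embryonic myosin light chain, rose to 714.1 to 2322.3 at 1 week, against 14.3 to 69.5 with no fracture (adjusted p = 4.8e-05), where 1 of 3 intact arrays was below the floor. Actc1, the actin of heart and developing muscle, rose 26.3-fold (adjusted p = 8.1e-05). Myh8, the perinatal myosin heavy chain, read 143.3 to 162.3 at 1 week, against 19.9 to 46.7 with no fracture (adjusted p = 0.0012), and the embryonic Myh3 was 4.42-fold higher (adjusted p = 0.0024), while at 3 days their log2 changes were -0.25 and 0.02. The summed signal of the list was 21505 to 39340 at 1 week, against 6694 to 9831 with no fracture. Both lists therefore moved at the times at which Chrna1 and Chrnd were high, and their parts in the result were not tested.

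**Figure D5:**
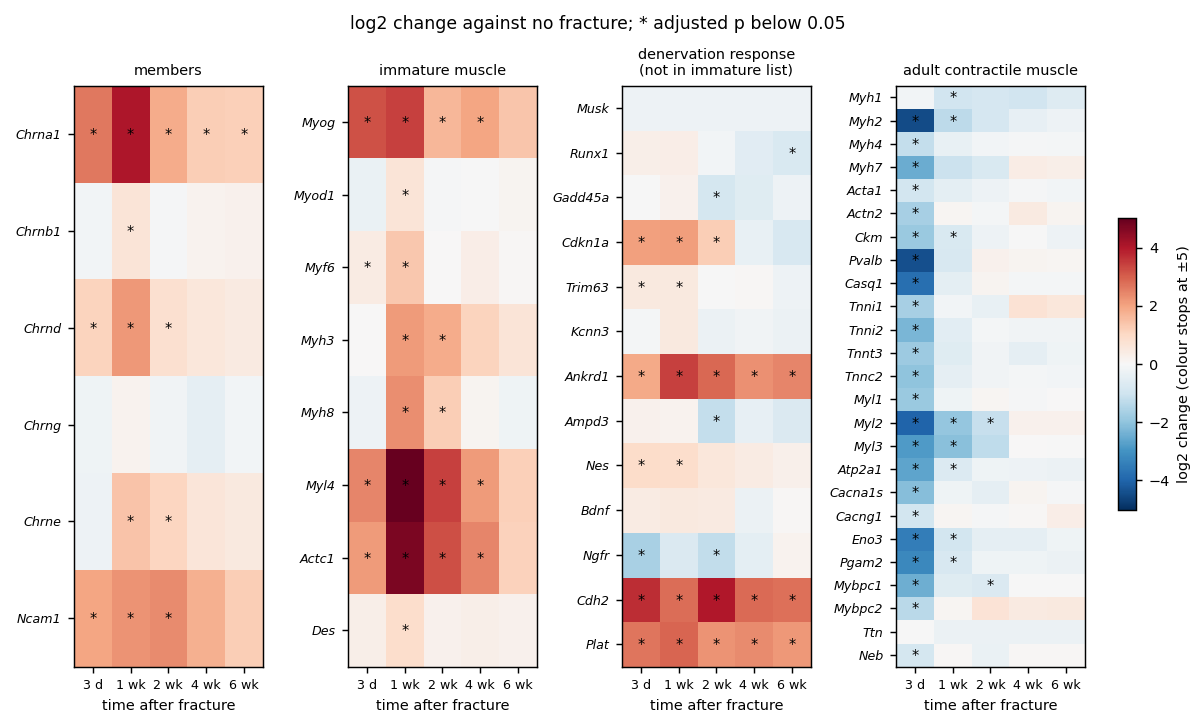
log2 change against no fracture (colour, red higher and blue lower) of the 6 genes, of immature muscle, denervation and adult contractile genes at 5 times, limma over 18 arrays. Stars mark an adjusted p below 0.05; all 8 immature genes have one at 1 week, and 23 of the 25 contractile genes at 3 days.

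Markers of other cells that hold receptors or Ncam1 were read beside these. Of the 10 measured subunits of neuronal acetylcholine receptors none was called higher at 3 days or at 1, 2 or 4 weeks and 3, 2, 3 and 0 were called lower, beside 20.4%, 17.8%, 16.8% and 9.70% of all probe sets. Chrna6 was lower at 3 days (adjusted p = 0.0087), reading 7.3 to 24.3 with 2 of 3 arrays below the floor, against 54.1 to 78.8 with no fracture, and Chrna2 was lower at 1 week (adjusted p = 0.022), reading 21.3 to 24.3 near the floor, against 30.3 to 170.4. At 6 weeks 1 of the 10, Chrna9, was higher (log2 change 0.58, adjusted p = 0.0023), with signals of 29.5 to 32.4, against 19.3 to 22.4 with no fracture. The summed signal of 12 neuron genes was 933 to 1353.5 at 3 days and 1087.4 to 1359 at 1 week, against 1060.1 to 1646.8 with no fracture, and that of 9 Schwann cell genes 2572.1 to 3220.4 and 3444.6 to 3623.5, against 2852.6 to 3398.2. Of the neuron genes 1 was called higher and 0 lower at 3 days, 1 and 1 at 1 week. Of the Schwann cell genes 2 and 2 were, and 2 and 1. Over all probe sets 18.9% and 20.4% were called higher and lower at 3 days and 18% and 17.8% at 1 week. At 2 weeks the counts were 0 and 1 for the neuron genes and 2 and 4 for the Schwann cell genes, beside 16.1% and 16.8% of all probe sets. Syt1 and Sox10, defining genes of neurons and Schwann cells, were at or near the floor. The 4 bone genes Bglap, Ibsp, Sparc and Col1a1, which fit the labelled tissue, summed to at least 10563 on every array. Of these, 2 were called higher at 3 days, 2 at 1 week, 3 at 2 weeks, 4 at 4 weeks and 2 at 6 weeks. The shares called higher among all probe sets at these times were 18.9%, 18%, 16.1%, 11.5% and 8.34%. The part of these cells in the Ncam1 result was not tested.

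The genes whose profiles were most like each member were found by Pearson r over the 18 arrays among 4206 genes above the floor on at least 9 arrays. For Chrna1 they were Myl4 (r = 0.92), Klf10, a zinc finger factor (0.91), Myog (0.90), Csrp2, a LIM protein (0.90), and Bhlhe40, a basic helix-loop-helix factor (0.89). For Chrnd they were Klf10 (0.89), the muscle regulator Myf6 (0.87) and Acacb, an acetyl-CoA carboxylase (0.86), and for Chrnb1 Myf6 (0.80), the heat shock protein Hspa1a (0.75) and Trim54 of the muscle sarcomere (0.74). For Chrne they were Mybph, a myosin binding protein (0.86), Eef1a2, the elongation factor of muscle and neurons (0.84), and the noncoding RNA H19 (0.83). For Chrng the likeness was weaker, with Wdr37 (0.77), Cpa1 (0.74) and Ntf4, a neurotrophin (0.67). The nearest to Ncam1 were C1qtnf6 (0.95), the lysophosphatidic acid receptor Lpar1 (0.93) and tenascin C, Tnc, a matrix protein of healing tissue (0.91). Myogenic regulators, Myog and Myf6, stood among the nearest profiles of the alpha, beta and delta subunits. These are likenesses over arrays that share a time course.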

How the data were processed

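The deposited values are signal intensities of Affymetrix rat genome arrays. The authors computed each intensity with Microarray Suite 5.0 from matched and mismatched probes and scaled every array to a mean of 500, so a value is a share of its array. The trimmed mean of each array was checked and lay at 500.7 to 500.8. Unused columns of per-sample values numbered 0. Precision is limited by the number of arrays. Neither detection calls nor probe-level data were analysed here.

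Of 8799 probe sets 59 controls were left out and 8740 tested. The annotation gave 7006 of the 8740 probe sets 1 symbol, 308 several and 1426 none. The brightest probe set of a gene led. Signals were floored at 20, taken as log2 and fitted with limma 3.58.1 in R 4.3.3, as the sum of a time effect and an age effect (10 residual degrees of freedom). A second limma fit let the age effect differ between the intact femur, 3 days, weeks 1 and 2 and weeks 4 and 6 (4 residual degrees of freedom). Moderation borrowed little from other probe sets (prior degrees of freedom 0.949 and 0.865). Adjusted p-values are Benjamini-Hochberg over 8740 probe sets, and calls were made below 0.05. Scripts were tested on simulated data.

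The 6 genes, the lists and the tests were chosen with earlier results of these data known. From each list at most 4 called genes with the greatest change at 3 days, 1 week and 2 weeks could be named, with the 5 likest profiles for Chrna1 and 3 for each other gene. Some genes were named outside this rule, among them Musk, Trim63, Runx1, Gadd45a and Ampd3. Promoters came from RefSeq (GRCr8), which held 5 of the 6. Alternatives were other scalings, floors and filters, other models, an equal-variance t-test of unlogged signal, covariates and leaving out arrays, ages or times.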

Additional observations from a re-analysis of the deposited data

Results flagged for a closer look

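The Ncam1 lead probe set passed the limma test of a different response to fracture in older and young rats, but the intact femora of each age are 1 array. The older minus young difference on the log2 scale exceeded that of the intact femora by 3.09 at 1 and 2 weeks (SE 0.15, adjusted p = 0.0012) and by 3.67 at 4 and 6 weeks (SE 0.15, adjusted p = 0.00064). With the other Ncam1 probe set the values were 2.63 and 1.79 and neither was called. Both differences use 1 intact older and 1 intact young array, so neither can be computed without them, and the intact older array, at 28.9, is near the floor of 20. The SE is taken from other arrays and holds no measure of the spread among intact older femora, so the p-values do not establish a difference between the ages. Over all probe sets, 194 and 264 were called in these comparisons. No group of 4 to 10 arrays of the same age and time existed in which a single array could be examined as an outlier.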

How the results depend on the processing

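The counts of the 6 genes called were 3, 5, 4, 1 and 1 at 3 days and 1, 2, 4 and 6 weeks. All of these calls were higher, while the counts below take calls in either direction. With only the arrays of the times compared they were 1, 1, 0, 0 and 0. By an equal-variance t-test of unlogged signal, 3 arrays of a time against the 3 intact arrays at p below 0.005, they were 1, 1, 1, 0 and 0. After Benjamini-Hochberg they were 1, 2, 1, 0 and 0. The study used the 0.005 limit for its software's comparison of single arrays, and the t-tests it reports had more arrays per group. With the actin 3' to 5' ratio as a covariate they were 1 at 3 days, 2 at 2 weeks and 0 at 4 weeks. With the contractile mean as a covariate they were 0 at 3 days and 2 at each of 1, 2 and 4 weeks. The 2 at 4 weeks were Chrna1, higher, and Chrng, lower. The contractile mean is lowest on the 3-day arrays, so covariate and time are hardest to separate there. It was also lower at 1 week (11.187 to 11.641) and 2 weeks (11.565 to 11.873) than with no fracture (11.918 to 12.224), so this limit holds at those times too. The 3-day changes of Chrnd and Ncam1 reversed to -0.71 and -2.22, while that of Chrna1 was 5.08 and lost its call. At 4 weeks the count was 3 after median centring, 1 of them Chrng, called lower. It was 2 with a floor of 100, with log2(signal + 50), with a filter at a mean signal of 200, with time alone in the model and with the mean of all probe sets of a gene. Leaving out 1 array or 1 age gave 1 to 3 genes at 3 days, 4 to 5 at 1 week, 2 to 4 at 2 weeks, 0 to 3 at 4 weeks, 0 to 1 at 6 weeks and 0 to 1 for older minus young rats. These include Chrne, called lower at 3 days without the adult rats. They also include Chrng, called lower at 4 weeks without the young 4-week array or the older 1-week array. The 2 ratios to the contractile list that passed became 0 with the median of the list or a floor of 100 and 4 after quantile normalization, and leaving out 1 time or 1 age gave 0 to 3. Without 1 age the exact permutation test has so few arrangements that it could hardly pass. Chrna1 at 1 week was called in 34 of 34 alternatives, with log2 changes of 3.61 to 4.74. In all, 93 values of single genes lost a call and 20 gained one. A further 38 changed sign, called neither in the main fit nor in the alternative concerned. Age, which arrays of all times share, was a term of the limma fit and the stratum of the permutation test. No further pairing was possible, because each age and time had 1 array and all titles carry the same series number. Signals near the floor of 20, as in intact older Ncam1, limit the size of a fold change.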
